A study of Mus musculus with 24 samples.

Results

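The genes described here are 9 interferon-stimulated genes and regulators of the interferon response: Irf1 and Irf9, which encode transcription factors, and Ifi27l2a, Bst2, Ifitm3, Ly6a, Pml, Rnf213 and Mndal. They were taken by symbol from the deposited transcript tables, where they are 9 of 55401 genes. The list was chosen by measured values of these same libraries, among them the vehicle response to anti-CD3 at 24 h, which earlier results had shown for Ifi27l2a, Bst2, Ifitm3 and Ly6a. The vehicle stimulation values below therefore describe the genes chosen, and no test is read from them. The propyzamide libraries belong to the same series and share the filter, normalization and spread estimate. Their adjusted p-values and calls are therefore not independent support. All 9 were among the 3799 genes that passed the filter on low counts, which a gene can pass through the group where it is high.

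The series holds 24 bulk RNA libraries from male C57BL/6 mice aged 11 weeks, made by SMART-seq2, a full-length cDNA method that keeps no strand. Mice received an empty vehicle or propyzamide, a herbicide that disturbs plant microtubules. Libraries were unstimulated or were taken 3 h or 24 h after anti-CD3, an antibody to the T cell receptor complex. Each of the 6 groups has 4 libraries. The title speaks of antigen-induced T cells and a preclinical model of inflammatory bowel disease, and the sources used here do not give the tissue, a sort, the doses or whether animals were pooled. Nothing says that the 4 libraries of a group came from separate animals, so p-values measure only the spread between these libraries. The library names carry 2 i5 index sequences, one in both unstimulated groups and vehicle at 3 h, the other in the remaining 3 groups. The labels do not call the index a batch. Groups with the same index were compared in vehicle at 3 h against unstimulated, propyzamide at 24 h against 3 h, and propyzamide against vehicle unstimulated and at 24 h. In the other comparisons of 2 groups, the index cannot be told apart from the condition.

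Interferons bind receptors on the cell surface and activate kinases of the JAK family. Signals of type I and III interferons then reach genes through a complex with IRF9 that binds the interferon-stimulated response element (ISRE), and those of type II interferon through the gamma-activated site (GAS). IRF1 is induced early by interferon gamma and itself binds ISRE-like sequences and drives a further set of genes, and in the gut and its lymphoid tissue activated T cells and NK cells are known sources of interferon gamma.

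Promoter windows from RefSeq on GRCm38.p6, from 250 bases before to 50 after a start site, were found for 7 of the 9 genes. Ifi27l2a and Ly6a had none in the table used here. The windows were searched for the ISRE core, which is GAAA, any 2 bases and GAAA, on both strands and for the GAS core TTCNNNGAA, which reads the same on both strands. The ISRE core is in 3.44% and the GAS core in 8.3% of all 32851 windows. The 4 stretches below are shown because they hold matches in Irf1, Bst2, Ifitm3 and Mndal, which did not all share one time course. Matched bases are in capitals and positions are counted from 1 at the first transcribed base.
Irf1, chr11:53769894-53769953, plus strand, positions -120 to -61: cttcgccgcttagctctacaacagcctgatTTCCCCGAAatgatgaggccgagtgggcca
Bst2, chr8:71537563-71537622, minus strand, positions -150 to -91: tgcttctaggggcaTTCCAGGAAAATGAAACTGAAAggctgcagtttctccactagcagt
Ifitm3, chr7:141010715-141010744, minus strand, positions 1 to 30: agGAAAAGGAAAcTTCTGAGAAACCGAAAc
Mndal, chr1:173880188-173880247, minus strand, positions -60 to -1: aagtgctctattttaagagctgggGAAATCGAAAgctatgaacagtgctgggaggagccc
Irf1 held a GAS match and no ISRE match in the window shown, and neither in its second window. Bst2 held a GAS match that overlaps the first of 2 ISRE matches, which overlap each other. Ifitm3 held 2 ISRE matches and a GAS match that overlaps the second, all just after its start. Mndal held an ISRE match in each of its 2 windows, and the one not shown lies at -54 to -45. The windows of Pml, Rnf213 and Irf9 held neither core. A match is a description of letters, and a window without one says only that these letters are not in it.

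Depth was low, and it sets how firmly each value can be read. Total counts ran from 438519 to 2071732 in 23 libraries, of which named protein-coding genes took 3.73 to 9.62% and the gene model Gm10800 41.9 to 50.3%. Propyzamide 24 h replicate 3 stood apart, with 9812102 counts, 29.9% of them in named protein-coding genes and 20.8% in Gm10800, so differences of single genes that rest on that group are also given without it. The medians, non-overlap counts and marker sums include it. Levels below are CPM, counts scaled to library size after TMM normalization, on which 3 counts are worth 1.31 to 6.17 CPM in the 23 libraries and 0.0937 CPM in the deepest. Many values of these genes rest on fewer than 10 counts.

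The 9 genes did not share one time course. Irf1 stood at 8.78 ± 2.84 CPM (SD, n = 4) in unstimulated vehicle libraries and was at 25.1 ± 13.3 by 3 h and 25.5 ± 13.2 at 24 h. Ifi27l2a, by contrast, went from 3.05 ± 2.46 to 4.53 ± 5.06 at 3 h and to 40.4 ± 8.09 at 24 h. Bst2, Ly6a, Pml, Ifitm3 and Rnf213 also had their highest mean at 24 h in both treatment arms. For Bst2, Ly6a, Ifitm3 and Rnf213 the 3 h mean was intermediate in both arms. With vehicle the log2 difference at 3 h was 1.17 ± 0.90 (SE) for Bst2, 0.72 ± 0.68 for Ly6a and 1.02 ± 0.60 for Ifitm3. With propyzamide it was 0.91 ± 0.82 for Bst2 and 0.71 ± 0.62 for Ifitm3, and Ly6a went from 3.99 to 8.59 CPM. These values do not separate Bst2 and Ly6a from Ifitm3 in timing. Irf9 had vehicle means of 4.29, 7.12 and 8.8 CPM in order of time, and Mndal was nearly absent from vehicle libraries at 3 h only. In bulk libraries such as these, fewer cells of a type and less RNA per cell cannot be told apart.

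**Figure D1:**
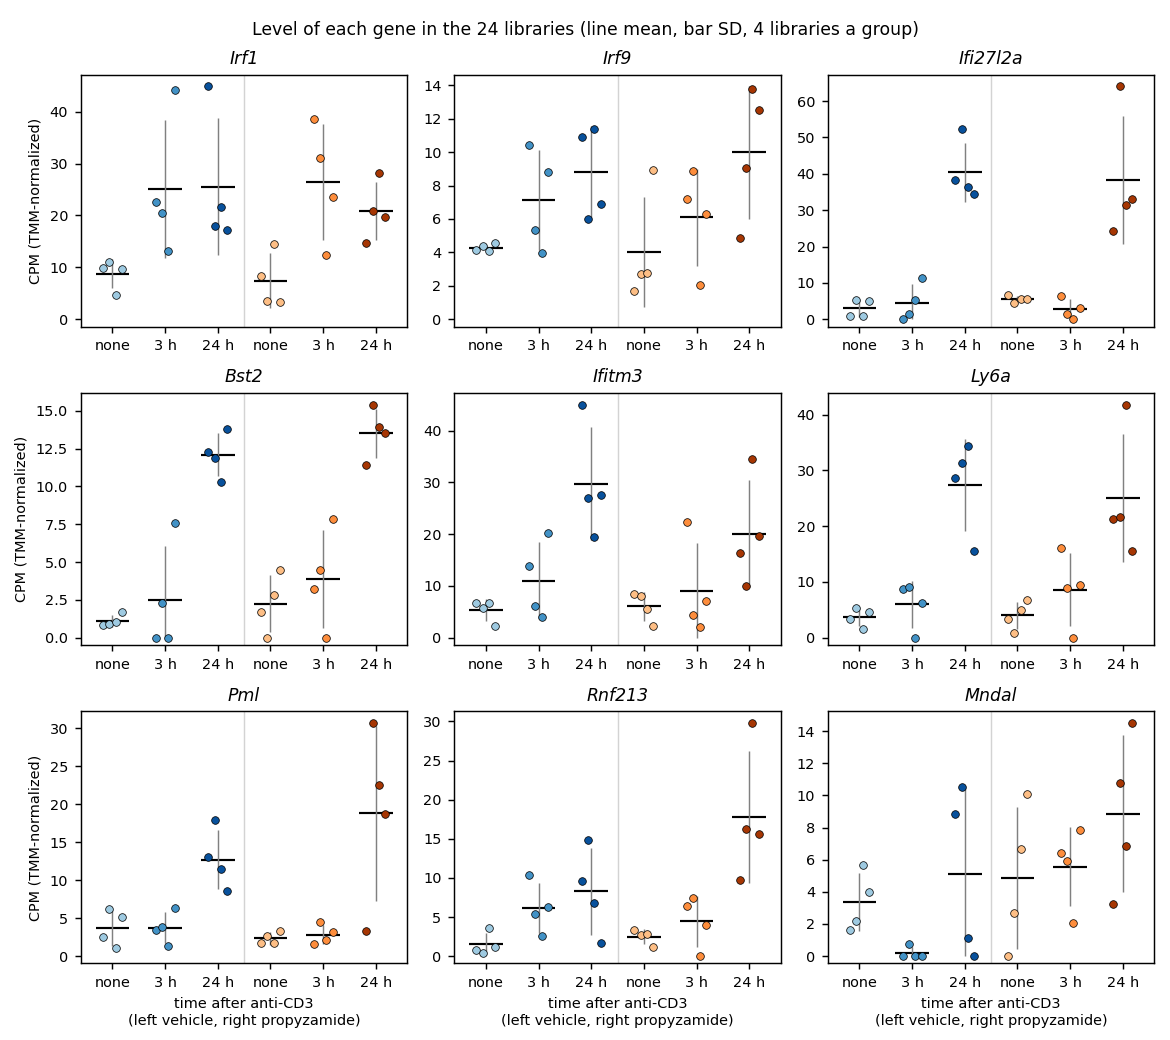
Level of each gene in every library, in TMM-normalized CPM on a linear axis, by time after anti-CD3 with vehicle (blue) and propyzamide (orange); points are libraries, horizontal lines group means and vertical lines the SD, cut at 0. Irf1 is already high at 3 h in both arms, while all 24 h values of Ifi27l2a, from 24.4 to 64.1 CPM, lie above every other library, the highest of which is at 11.4.

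Irf1 (ENSMUSG00000018899.16, chromosome 11, 53770014 to 53778374, plus strand) encodes a transcription factor induced by interferon gamma. In unstimulated vehicle libraries it had 9.91, 11, 4.61 and 9.65 CPM. At 3 h the vehicle libraries had 22.5, 20.5, 13.1 and 44.2 CPM, and at 24 h they had 45, 17.9, 21.7 and 17.2. Every stimulated vehicle library lay above every unstimulated one, and the 3 h and 24 h libraries overlapped over most of their range. With propyzamide the unstimulated libraries had 8.35, 3.6, 14.5 and 3.35 CPM. They were followed by 38.5, 31.1, 12.3 and 23.5 CPM at 3 h and by 14.7, 20.8, 28.2 and 19.7 at 24 h. The 3 h range met the unstimulated range through 1 library on each side, and the 24 h values all lay above it, the lowest at 14.7 against 14.5.

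On the log2 scale Irf1 differed from unstimulated by 1.51 ± 0.48 (SE) at 3 h and by 1.57 ± 0.48 at 24 h with vehicle, and the 24 h minus 3 h difference was 0.06 ± 0.47. The propyzamide arm, fitted together with the vehicle libraries, gave 1.78 ± 0.50 at 3 h, with a Benjamini-Hochberg adjusted p of 0.0886 from edgeR's quasi-likelihood test. Its 24 h value against unstimulated was 1.46 ± 0.50 (edgeR adjusted p = 0.226). The 24 h minus 3 h difference was -0.33 ± 0.46 (edgeR adjusted p = 0.637, 95% interval -1.27 to 0.61). Leaving out the deepest library, these 24 h values were 1.28 ± 0.52 and -0.49 ± 0.50. None of the 3 Irf1 values in that arm passed the threshold of 0.05. When only named protein-coding genes were fitted, the 3 h value was 2.10 ± 0.49 with an edgeR adjusted p of 0.0268, within a range of 0.0167 to 0.366 over 8 other settings. The antisense model Gm17334 overlaps Irf1 by 907 bases and took 103 counts over all libraries against 1353 for Irf1, and reads of the 2 cannot be told apart without strand.

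Irf9 (ENSMUSG00000002325.15, chromosome 14, 55603571 to 55610030, plus strand) encodes a DNA-binding subunit of the complex that recognizes the ISRE. Vehicle libraries had 4.13, 4.38, 4.1 and 4.54 CPM unstimulated, 10.4, 5.33, 3.94 and 8.83 at 3 h, and 10.9, 5.97, 11.4 and 6.88 at 24 h. The 24 h values all lay above the unstimulated ones, by a mean of 8.8 against 4.29 CPM, and the 3 h values reached below them. In propyzamide libraries Irf9 had 1.67, 2.7, 2.79 and 8.94 CPM unstimulated, 7.21, 8.9, 2.06 and 6.28 at 3 h, and 4.88, 9.03, 13.8 and 12.5 at 24 h. All 3 propyzamide ranges overlapped. The log2 differences at 3 h were 0.69 ± 0.54 with vehicle and 0.66 ± 0.57 with propyzamide (edgeR adjusted p = 0.636 for propyzamide). At 24 h they were 1.06 ± 0.52 and 1.38 ± 0.54 (edgeR adjusted p = 0.258 for propyzamide, 95% interval 0.29 to 2.48), and the propyzamide value was 1.2 ± 0.59 without the deepest library. These are the smallest 24 h values among the 9 genes apart from Mndal, and the propyzamide value did not pass the test.

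Ifi27l2a (ENSMUSG00000079017.3, chromosome 12, 103442167 to 103443680, minus strand) encodes a small hydrophobic protein strongly induced by interferon. It had 0.826, 5.26, 1.02 and 5.11 CPM in unstimulated vehicle libraries, 0, 1.52, 5.26 and 11.4 at 3 h, and 38.2, 52.3, 36.5 and 34.4 at 24 h. The lowest 24 h library, at 34.4 CPM, stood above the highest of the other 8, at 11.4. In propyzamide libraries it had 6.68, 4.5, 5.57 and 5.59 CPM unstimulated, 6.41, 1.48, 0 and 3.14 at 3 h, and 24.4, 64.1, 31.5 and 33.2 at 24 h. Again no 24 h library overlapped an earlier one. The counts behind the 24 h values were 56, 35, 32 and 20 with vehicle and 15, 71, 1009 and 32 with propyzamide, against 0 to 12 in each of the 16 other libraries.

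The fitted 24 h level of Ifi27l2a with vehicle was 12.4-fold the unstimulated one (log2 3.64 ± 0.61) and 8.85-fold the 3 h one (log2 3.15 ± 0.63), a description. With propyzamide it rose 11.6-fold from 3 h to 24 h (log2 3.53 ± 0.65, edgeR adjusted p = 0.00271, higher in 4 of 4 libraries). Without the deepest library the value was 3.66 ± 0.67 (edgeR adjusted p = 0.00408), and the call held in all 24 fits that left out 1 library, with adjusted p from 0.00277 to 0.0221, and in all 8 other settings, from 1.54e-06 to 0.0189. Against unstimulated propyzamide libraries the 24 h value was 2.79 ± 0.60 (edgeR adjusted p = 0.0606). Without the deepest library this one was 2.93 ± 0.62 with an adjusted p of 0.0309, within a range of 0.0309 to 0.189 over the 24 fits that left out 1 library. At 3 h the differences were 0.49 ± 0.70 with vehicle and -0.74 ± 0.72 with propyzamide (edgeR adjusted p = 0.666 for propyzamide). The near copy Ifi27l2b had 519 counts over all libraries against 1346, and how reads were split between the copies is uncertain.

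Bst2 (ENSMUSG00000046718.8, chromosome 8, 71534255 to 71537456, minus strand) encodes tetherin, a membrane protein that holds budding virus particles at the cell surface. With vehicle it had 0.826, 0.877, 1.02 and 1.7 CPM unstimulated, 0, 2.28, 0 and 7.57 at 3 h, and 12.3, 11.9, 10.3 and 13.8 at 24 h. The 24 h libraries sat close together and apart from all earlier ones. With propyzamide the values were 1.67, 0, 2.79 and 4.47 CPM unstimulated, 3.21, 4.45, 0 and 7.85 at 3 h, and 11.4, 15.4, 13.9 and 13.5 at 24 h. The same separation of 24 h from both earlier stages was present there. Counts in the 23 shallower libraries were at most 18. The 24 h level with vehicle was 10.4-fold the unstimulated one (log2 3.38 ± 0.78) and 4.6-fold the 3 h one (log2 2.20 ± 0.78). With propyzamide the log2 difference was 2.57 ± 0.75 against unstimulated (edgeR adjusted p = 0.166) and 1.66 ± 0.70 against 3 h (edgeR adjusted p = 0.0964), neither past the threshold although all 4 libraries were higher in each. Leaving out the deepest library gave 2.57 ± 0.82 and 1.70 ± 0.79.

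Ifitm3 (ENSMUSG00000025492.6, chromosome 7, 141009586 to 141010770, minus strand) encodes an endosomal membrane protein that blocks virus entry. With vehicle it had 6.61, 5.7, 6.66 and 2.27 CPM unstimulated, 13.8, 6.09, 3.94 and 20.2 at 3 h, and 45, 26.9, 19.4 and 27.5 at 24 h. The 3 h libraries spread between the other 2 stages and overlapped both. With propyzamide it had 8.35, 8.1, 5.57 and 2.23 CPM unstimulated, 22.4, 4.45, 2.06 and 7.06 at 3 h, and 16.3, 9.93, 34.5 and 19.7 at 24 h. The 24 h libraries lay above the unstimulated ones and were met by 1 library at 3 h. The log2 difference at 24 h was 2.49 ± 0.57 with vehicle and 1.80 ± 0.58 with propyzamide (edgeR adjusted p = 0.213 for propyzamide), the latter 1.37 ± 0.61 without the deepest library. From 3 h to 24 h it was 1.48 ± 0.57 with vehicle and 1.08 ± 0.56 with propyzamide (edgeR adjusted p = 0.166 for propyzamide), and the latter was 0.67 ± 0.59 without the deepest library. Its neighbour and near paralog Ifitm2, with 713 counts against 1403, was at 5.43, 3.29 and 8.72 CPM with vehicle in order of time and passed the test in no comparison.

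Ly6a (ENSMUSG00000075602.10, chromosome 15, 74994877 to 74998031, minus strand) encodes Sca-1, a lipid-anchored surface protein of stem cells and activated lymphocytes that interferon raises. With vehicle it had 3.3, 5.26, 1.54 and 4.54 CPM unstimulated, 8.65, 9.13, 0 and 6.31 at 3 h, and 28.7, 31.4, 34.3 and 15.5 at 24 h. All 24 h libraries lay above all earlier ones. With propyzamide it had 3.34, 0.9, 5.02 and 6.7 CPM unstimulated, 16, 8.9, 0 and 9.42 at 3 h, and 21.2, 21.7, 41.8 and 15.6 at 24 h. There the highest 3 h library reached just past the lowest at 24 h. With vehicle the 24 h level was 7.39-fold the unstimulated one (log2 2.89 ± 0.62) and 4.48-fold the 3 h one (log2 2.16 ± 0.63). The propyzamide differences were 2.66 ± 0.64 against unstimulated (edgeR adjusted p = 0.1) and 1.47 ± 0.59 against 3 h (edgeR adjusted p = 0.0823), and 2.28 ± 0.66 and 1.11 ± 0.62 without the deepest library. Ly6a shares sequence with Ly6c1 and Ly6c2, which had 529 and 486 counts against 1596.

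Pml (ENSMUSG00000036986.16, chromosome 9, 58218076 to 58249786, minus strand) encodes the scaffold protein of PML nuclear bodies. Its vehicle values were 2.48, 6.14, 1.02 and 5.11 CPM unstimulated, 3.46, 3.8, 1.31 and 6.31 at 3 h, and 13, 17.9, 11.4 and 8.6 at 24 h. The first 2 stages overlapped and the 24 h libraries stood above both. Its propyzamide values were 1.67, 2.7, 1.67 and 3.35 CPM unstimulated, 1.6, 4.45, 2.06 and 3.14 at 3 h, and 3.26, 30.7, 22.5 and 18.7 at 24 h. In that arm 3 of 4 libraries at 24 h stood far above and the fourth stayed among the earlier ones, with 2 counts. With propyzamide Pml rose 8.19-fold from unstimulated to 24 h (log2 3.03 ± 0.62, edgeR adjusted p = 0.0385, higher in 3 of 4 libraries). It rose 6.91-fold from 3 h to 24 h (log2 2.79 ± 0.62, edgeR adjusted p = 0.00853, higher in 3 of 4 libraries). Without the deepest library the values were 2.96 ± 0.67 (edgeR adjusted p = 0.0399) and 2.72 ± 0.68 (edgeR adjusted p = 0.0225). The rise from unstimulated held in 2 of the 8 fits that left out 1 of the compared libraries, within adjusted p of 0.0164 to 0.189 over all 24 such fits. The rise from 3 h held in all 24, with adjusted p from 0.00428 to 0.0408, and in 4 of 7 other settings, from 0.000543 to 0.08. With the compared groups alone Pml did not pass the filter on low counts in either comparison, so both calls rest on a filter that uses all 6 groups. With vehicle the log2 differences were 0.00 ± 0.61 at 3 h and 1.75 ± 0.56 at 24 h.

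Rnf213 (ENSMUSG00000070327.14, chromosome 11, 119393100 to 119487418, plus strand) encodes a very large E3 ubiquitin ligase that acts on intracellular microbes. With vehicle it had 0.826, 0.438, 3.59 and 1.14 CPM unstimulated, 10.4, 5.33, 2.63 and 6.31 at 3 h, and 9.55, 14.9, 6.85 and 1.72 at 24 h. Means of 6.16 at 3 h and 8.27 at 24 h both stood above 1.5 CPM, and 1 library of each stage reached into the unstimulated range. With propyzamide it had 3.34, 2.7, 2.79 and 1.12 CPM unstimulated, 6.41, 7.41, 0 and 3.92 at 3 h, and 9.77, 16.3, 29.8 and 15.6 at 24 h. Here the 24 h libraries lay above all 8 earlier ones. With propyzamide Rnf213 rose 3.92-fold from 3 h to 24 h (log2 1.97 ± 0.62, edgeR adjusted p = 0.0348, higher in 4 of 4 libraries). Without the deepest library the value was 1.62 ± 0.71 with an adjusted p of 0.142, and the call held in 1 of the 8 fits that left out 1 of the compared libraries, within a range of 0.0257 to 0.142 over all 24 such fits. Against unstimulated it was 2.88 ± 0.66 (edgeR adjusted p = 0.0877), and 2.49 ± 0.74 without the deepest library. As for Pml, Rnf213 is kept by the filter through groups outside these comparisons, since it did not pass with the compared groups alone. The vehicle differences were 1.94 ± 0.72 at 3 h, 2.42 ± 0.69 at 24 h and 0.49 ± 0.65 between them. The antisense model A930037H05Rik overlaps Rnf213 by 38631 bases and had 198 counts against 1084.

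Mndal (ENSMUSG00000090272.9, chromosome 1, 173849126 to 173942491, minus strand) encodes a nuclear DNA-binding protein of the IFI200 family. With vehicle it had 1.65, 2.19, 5.64 and 3.97 CPM unstimulated, 0, 0.761, 0 and 0 at 3 h, and 8.87, 10.5, 1.14 and 0 at 24 h. The 3 h libraries held 1 count in all against 25 unstimulated, a depth-scaled ratio of 0.0837 (exact 95% interval 0.00204 to 0.511, for counting error only). The 24 h libraries split, with 2 high, 1 at 1 count and 1 at 0. With propyzamide it had 0, 2.7, 6.69 and 10.1 CPM unstimulated, 6.41, 5.93, 2.06 and 7.85 at 3 h, and 3.26, 10.8, 6.87 and 14.5 at 24 h, and all stages overlapped. Its log2 differences in that arm were 0.19 ± 0.81 at 3 h (edgeR adjusted p = 0.923) and 0.80 ± 0.78 at 24 h (edgeR adjusted p = 0.675), the latter 0.98 ± 0.86 without the deepest library. Mndal overlaps its relatives Ifi203 by 22085 bases and Ifi211 by 16702 bases on the same strand, and they had 631 and 83 counts against 342, so how reads were split among them is uncertain.

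Members were then read against all 3799 tested genes in the comparisons with unstimulated libraries. With vehicle at 3 h, 0 of the 9 were called by edgeR at an adjusted p of 0.05 or less (3 at an unadjusted p under 0.05, and 0 by DESeq2), where 0.29% of tested genes were called in either direction and 0.184% higher. Irf1 was the 1 gene with all 4 libraries above the unstimulated ones, which held for 1.5% of tested genes, and Mndal the 1 gene with all 4 below, which held for 3.79%. With vehicle at 24 h, 4 were called higher (Ifi27l2a, Bst2, Ifitm3 and Ly6a), where 0.316% of tested genes were called higher and 0.421% in either direction. Of the 9, 7 did not overlap (all but Rnf213 and Mndal), where 2.95% did. These vehicle counts took part in the choice of the genes, so their excess over the shares of all tested genes is not read as a result. With RLE normalization, 5 genes in all were called, each higher, against 12 higher and 4 lower.

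The same counts were taken in the propyzamide arm. At 3 h, 0 of the 9 were called by edgeR (1 at an unadjusted p under 0.05, and 0 by DESeq2), where 0.158% of tested genes were called higher. No gene of the 9 had all 4 libraries above the unstimulated ones at 3 h, where 2.74% of tested genes had. At 24 h, Pml alone was called higher and none lower, where 0.0526% of tested genes were called higher, 0.0263% lower and 0.079% in either direction. The number was 6 by DESeq2, which called 1.87% of all tested genes, 2 without the deepest library, where 0.539% were called, and between 0 and 4 over the fits that left out 1 library. Non-overlap at 24 h held for 6 of the 9 (Ifi27l2a, Bst2, Ifitm3, Ly6a, Rnf213 and Irf1), where it held for 4.26% of tested genes. The median log2 difference of the 9 genes at 24 h was 2.57 with propyzamide, against 0.03 over all tested genes and 0.27 over named protein-coding genes, and 2.42 with vehicle, against -0.03 and 0.11. At 3 h the medians were 0.71 and 0.72, against -0.13 and -0.04 over all tested genes. Each 3 h and 24 h comparison shares its unstimulated libraries. The list was chosen from measured values of these libraries, so the medians describe the genes chosen and are not support for a late response.

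**Figure D2:**
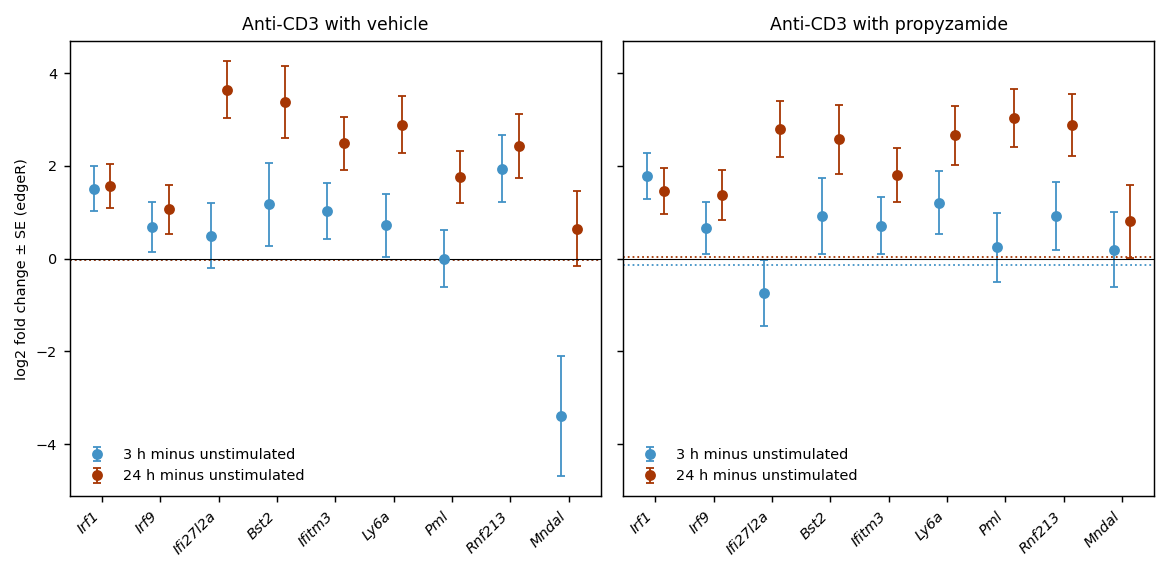
Difference of each gene from unstimulated libraries at 3 h (blue) and 24 h (brown), as log2 fold change with its SE from edgeR, with vehicle on the left and propyzamide on the right; dotted lines are medians over all 3799 tested genes. The 2 times coincide for Irf1 and stand apart for Ifi27l2a, at 0.49 and 3.64 with vehicle and -0.74 and 2.79 with propyzamide.

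The direct comparison of 24 h with 3 h separated the genes further. With vehicle, 0 of the 9 were called by edgeR (6 at an unadjusted p under 0.05, and 2 by DESeq2), where 0% of tested genes were called higher and 462 had an unadjusted p under 0.05. All 24 h libraries lay above all 3 h libraries for 4 of the 9 (Ifi27l2a, Bst2, Ly6a and Pml), where 5.16% of tested genes had that order and 5.45% the opposite one. With propyzamide, 3 rose (Ifi27l2a, Pml and Rnf213), where 8.61% of tested genes were called higher and 6.63% lower, 327 against 252, a split that RLE normalization moved to 694 against 197. Non-overlap in that comparison held for 3 of the 9 (Ifi27l2a, Bst2 and Rnf213), where it held for 12.3% of tested genes. The number of members called varied with the number of all genes called. It was 6 by DESeq2, which called 1044 of 3799 genes (27.5%), and 5 with RLE normalization, which called 891 (23.5%). It was 2 without the deepest library, where 6.45% of tested genes were called, and 1 without the deepest and the shallowest library, where 1.67% were. The median over the 9 genes was 1.75 with vehicle and 1.47 with propyzamide, against -0.01 and 0.15 over all tested genes and 0.27 and 0.73 over named protein-coding genes. These medians too describe genes chosen from measured values of the same libraries. RLE normalization raised the median of all genes to 0.48 in the propyzamide comparison, and under it Irf1 was at 0.03 and not at -0.33.

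Propyzamide was compared with vehicle at each stage. No member was called by edgeR or DESeq2 at any stage, where 0% of tested genes were called by edgeR in each. At an unadjusted p under 0.05 the counts were 0 of 9 unstimulated, 1 at 3 h and 0 at 24 h, against 128, 114 and 388 of all tested genes. No member separated the arms unstimulated or at 24 h, where 0.974 and 2.47% of tested genes had all propyzamide libraries above and 2.11 and 2.37% had them below. Among unstimulated libraries the log2 differences ran from -0.68 ± 0.66 for Pml (95% interval -2.04 to 0.67) to 0.98 ± 0.89 for Bst2 (-0.83 to 2.79). At 24 h they ran from -0.52 ± 0.52 for Ifitm3 (-1.59 to 0.55) to 1.14 ± 0.58 for Rnf213 (-0.04 to 2.33, edgeR adjusted p = 0.496). The Rnf213 value was 0.78 ± 0.68 and that of Ifitm3 -0.92 ± 0.57 without the deepest library. At both of these stages the interval of each of the 9 genes reached past 2-fold in at least 1 direction, so the data do not show that the arms were alike.

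At 3 h, 8 of the 9 genes lay between -0.46 ± 0.75 for Ifi27l2a and 0.72 ± 0.83 for Bst2, and Mndal stood apart. Mndal had 23 counts in propyzamide libraries and 1 in vehicle libraries, a depth-scaled ratio of 21.5 (exact 95% interval 3.5 to 887, for counting error only). All 4 propyzamide libraries, at 2.06 to 7.85 CPM, were above all 4 vehicle libraries, at 0 to 0.761, where 0.658% of tested genes had that separation. At 3 h the arms carry different index sequences, so treatment and index cannot be told apart here. The fitted log2 difference was 4.15 ± 1.26 with an unadjusted p of 0.00258 and an edgeR adjusted p of 1, so it did not pass over all genes. The fitted value depends on how a single count is handled, and it ran from 3.86 to 7.02 when 1 library was left out. For Mndal the treatment-by-stimulation interaction at 3 h was 3.58 ± 1.55 (edgeR adjusted p = 0.997), and the treatment-by-time interaction was -3.42 ± 1.55 (edgeR adjusted p = 0.778). In the 3 interaction tests 0 of the 9 genes were called by edgeR and 0 by DESeq2, with 1, 0 and 1 at an unadjusted p under 0.05, against 0% of tested genes called in each.

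**Figure D3:**
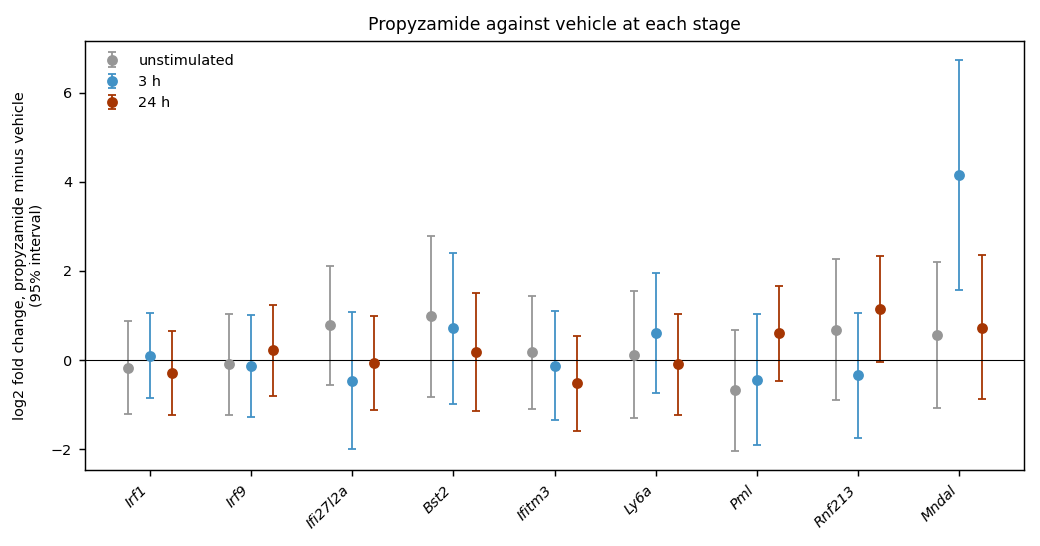
Propyzamide minus vehicle for each gene, as log2 fold change with its 95% interval from edgeR, in unstimulated libraries (grey), at 3 h (blue) and at 24 h (brown). Only Mndal at 3 h has an interval that leaves out 0, from 1.57 to 6.73, and its adjusted p over all genes is 1. At 3 h the arms also differ in index sequence.

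The rest of the pathway was read from lists of ligands, receptors, kinases, regulators and targets. The 10 interferon genes were below the filter in all comparisons: Ifng, the type II interferon, had 8 counts over 24 libraries, 2 of them outside the deepest, and Ifnl3 had 6 and 1. Of 6 receptor chains 3 were tested, and Ifnar1, a chain of the type I receptor, rose from 3 h to 24 h with propyzamide by 2.01 ± 0.60 (edgeR adjusted p = 0.03), from 3.04 ± 0.77 to 12.5 ± 4.49 CPM. Unstimulated propyzamide libraries had 9.94 ± 7.41 CPM of Ifnar1, and its 24 h difference from them was 0.49 ± 0.53 (edgeR adjusted p = 0.707). Ifngr1, the ligand-binding chain of the type II receptor, was called in no comparison. Jak1, a kinase of all 3 receptor types, rose from 3 h to 24 h with propyzamide by 2.53 ± 0.55 (edgeR adjusted p = 0.0078), from 5.74 ± 4.89 to 34.3 ± 6.44 CPM. Unstimulated propyzamide libraries had 9.25 ± 2.86 CPM of Jak1, and its 24 h difference from them was 1.85 ± 0.51 (edgeR adjusted p = 0.145). The call of Jak1 held in 24 of 24 fits that left out 1 library, and that of Ifnar1 in 14 of 24. Over the other settings in which each gene passed the filter, the call held in 7 of 8 for Jak1 and 2 of 7 for Ifnar1. Without the deepest library Jak1 was at 2.5 ± 0.58 (edgeR adjusted p = 0.016) and Ifnar1 at 1.87 ± 0.66 (edgeR adjusted p = 0.0696), the latter no longer past the threshold.

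Other regulators and targets gave few calls. The lists were drawn up with earlier results of these data known, so their vehicle values, with the p-values beside them, are a description. Of 9 other interferon regulatory factors 4 were tested and 0 called by edgeR. Irf7, which amplifies the type I response, was at 1.7 ± 1.52, 1.96 ± 2.99 and 12.2 ± 5.97 CPM with vehicle in order of time, with a log2 difference of 2.72 ± 0.72 at 24 h (edgeR adjusted p = 0.0964), and 2.67 ± 0.70 with propyzamide (edgeR adjusted p = 0.108), or 2.49 ± 0.78 without the deepest library. Irf8, a factor of myeloid and B cells, had the most counts of that list and was at 15 CPM unstimulated, 23.4 at 3 h and 19.3 at 24 h with vehicle. Of 8 inhibitors 3 were tested (Socs3, Ptpn1 and Ptpn6), and 0 were called by edgeR. Of 50 other interferon-stimulated genes 18 were tested. Gbp2, a guanylate-binding protein, was at 0.887 ± 0.651 CPM unstimulated, 29.7 ± 28.4 at 3 h and 28 ± 20.8 at 24 h with vehicle, called at both times (log2 4.87 ± 0.84 and 4.85 ± 0.84, edgeR adjusted p = 0.00442 and 0.0049). With propyzamide Gbp2 rose at 3 h by 3.46 ± 0.79 (edgeR adjusted p = 0.0323), from 3.18 ± 2.42 to 31.2 ± 23.1 CPM, a call kept in 18 of 24 fits that left out 1 library. At 24 h it was at 12.3 ± 8.97 CPM, with a difference from unstimulated of 2.20 ± 0.79 (edgeR adjusted p = 0.242) that did not pass. The other calls in that list were from 3 h to 24 h with propyzamide, where Shisa5, Sp100, Sp110 and Ly6e rose, by 2.65, 2.41, 2.24 and 2.23, 4 of 18 against 8.61% of tested genes. Against unstimulated propyzamide libraries these genes were at -0.93, -1.05, -0.87 and -0.80 at 3 h. At 24 h they were at 1.72, 1.36, 1.36 and 1.43 against unstimulated, and none was called, so part of each rise came from a low 3 h value. In the IFI200 family Ifi209 rose from 3 h to 24 h with propyzamide, by 3.89 ± 0.88 (edgeR adjusted p = 0.00979), 1 of 4 tested of 11 in the files. Its propyzamide means were 6.25, 0.763 and 12.2 CPM in order of time. The 24 h difference from unstimulated was 0.92 ± 0.63 (edgeR adjusted p = 0.524). Ly6d, a relative of Ly6a, rose in the same comparison by 2.01 ± 0.66 (edgeR adjusted p = 0.0413), a call kept in 7 of 24 fits that left out 1 library. In a fit without the deepest library, Shisa5, Sp100, Sp110, Ly6e, Ifi209 and Ly6d were at 2.76, 2.35, 2.32, 2.31, 3.58 and 2.30, all still called. Over the other settings in which each passed the filter, the call held in 8 of 8 for Shisa5 and for Ly6e. It held in 5 of 8 for Sp100, 5 of 7 for Ifi209, 3 of 7 for Sp110 and 3 of 8 for Ly6d. No gene named from these lists was called lower in any of the 12 comparisons.

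Markers of cell types moved between the groups as well. Summed over 12 genes, T cell markers were at 22.1 to 39.4 CPM in unstimulated vehicle libraries, 20.5 to 38.1 at 3 h and 49.8 to 65.4 at 24 h, and with propyzamide at 26.7 to 44.7, 16.5 to 39.3 and 63.5 to 126. The 24 h ranges lay above both earlier ones in each arm, as they did for Ifi27l2a and Bst2. B cell markers (9 genes) were at 115 to 328, 103 to 133 and 221 to 472 CPM with vehicle, and at 130 to 297, 14.4 to 153 and 334 to 621 with propyzamide. NK and cytotoxic markers (6 genes) were at 3.97 to 12.8, 5.26 to 51.9 and 23.9 to 86 CPM with vehicle, and at 7.2 to 25.6, 4.11 to 37.7 and 41.5 to 63.8 with propyzamide. All genes of these lists had counts in every group except Klrb1c in vehicle libraries at 3 h and Ncr1 in unstimulated propyzamide libraries. The part of these markers in the 24 h levels of the 9 genes was not tested.

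Intestinal epithelium markers (13 genes) went the other way with vehicle, from 277 to 330 CPM unstimulated to 143 to 322 at 3 h and 25.4 to 46.4 at 24 h, with Phgr1 at 0 at 24 h. With propyzamide they were at 237 to 978 CPM unstimulated, 32.9 to 298 at 3 h and 33.4 to 729 at 24 h. The highest of these 24 h values is that of the deepest library, and no sum was taken without it. Plasma cell markers (7 genes) were at 416 to 662, 131 to 323 and 99.8 to 125 CPM with vehicle, and at 385 to 845, 12.3 to 581 and 73.2 to 530 with propyzamide, and Tnfrsf17 was at 0 in 3 groups. The mean of T cell markers was below those of B cell and plasma cell markers in all 6 groups. It was below that of epithelial markers in each except vehicle at 24 h. With propyzamide at 24 h the epithelial mean includes the deepest library. The ranges overlapped there, at 63.5 to 126 CPM for T cell and 33.4 to 729 for epithelial markers. Sums over lists of different genes do not measure the shares of cell types. Plasmacytoid dendritic markers, summed without the member Bst2 over 4 genes, stayed between 8.14 and 30.7 CPM in all 24 libraries, and no group separated. Endothelial markers, summed without Ly6a over 3 genes, ran from 7.21 to 31.5 CPM, with Cdh5 at 0 in 2 groups. Granulocyte markers (5 genes) were at 10.8 to 35.5 CPM in unstimulated vehicle libraries, where S100a8 and S100a9 were at 0, 18.4 to 98.4 at 3 h and 7.99 to 39.6 at 24 h. With propyzamide they were at 12.3 to 16.2, 2.06 to 79.3 and 9.93 to 41.5 CPM, with S100a9 at 0 unstimulated. Macrophage and monocyte markers (9 genes) ran from 8.23 to 138 CPM, with C1qc at 0 in propyzamide libraries at 3 h.

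**Figure D4:**
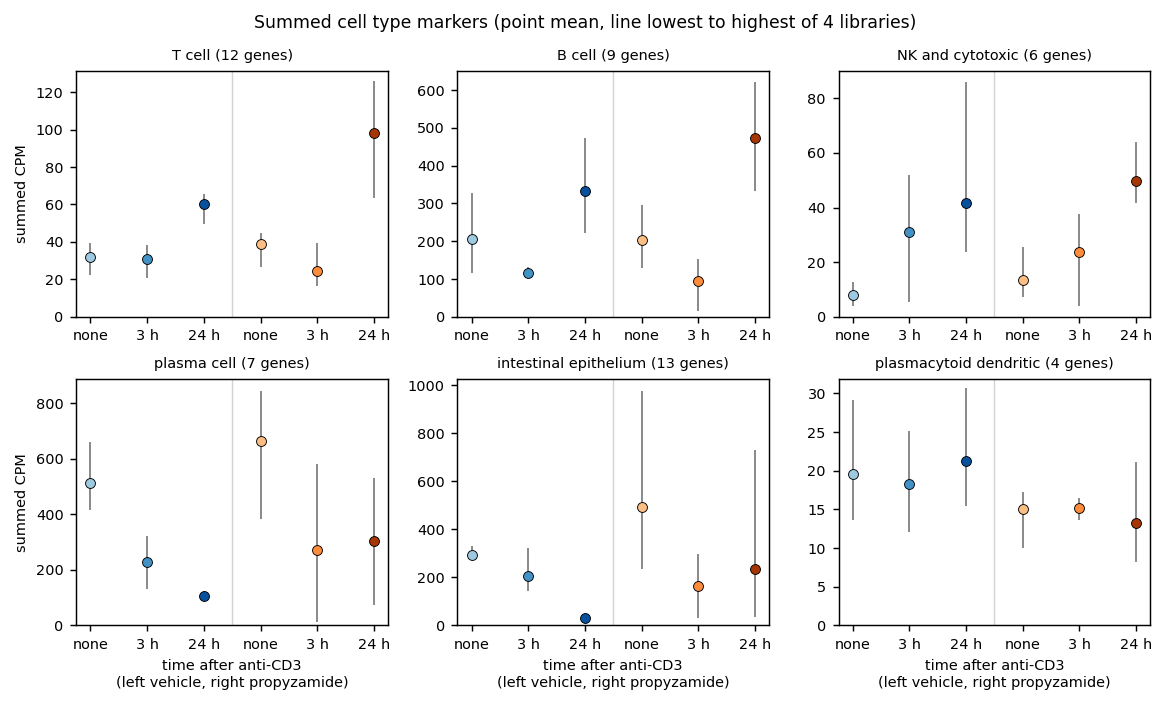
Summed CPM of 6 marker lists by group, with the mean as a point and a line from the lowest to the highest of 4 libraries, on linear axes that start at 0. T cell markers are highest at 24 h in both arms, at means of 60 CPM with vehicle and 98.2 with propyzamide, while epithelial markers are lowest at 24 h with vehicle, at a mean of 31.

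The genes most like 3 of the members over the 24 libraries split along the same lines, as a description of libraries that share groups and depth. By Pearson's r of log2 CPM over 2449 other named protein-coding genes, Ifi27l2a was closest to Rac2, a GTPase of blood cells (0.86), to B2m, the light chain of MHC class I (0.86), and to the class I gene H2-Q6 (0.85). Bst2 was closest to B2m (0.85), the lymphocyte adaptor gene Sla (0.84) and H2-Q6 (0.81). B2m was at 61, 73.4 and 157 CPM with vehicle in order of time, and at 73.3, 64.6 and 176 with propyzamide. Irf1 was closest to Gbp2 (0.82), to S100a9, a granulocyte calcium-binding protein (0.82), and to Mxd1, a partner of MAX (0.78). S100a9 was at 0, 13.1 and 8.89 CPM with vehicle and at 0, 17.8 and 8.34 with propyzamide. Among the 9 members the 36 pairs had r from 0.01, for Irf1 and Mndal, to 0.86, for Bst2 and Ly6a, with a median of 0.59.

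Transcript shares and levels per length add to the picture. Ifi27l2a and Ifitm3 have 1 transcript each in the files, and 1 transcript held 98.1% of Bst2 counts. For Rnf213 the leading transcript depended on the deepest library: one held 70.3% of counts with that library, and another led with 37.1% without it. For Mndal the leading transcripts held 41.2% with it and, for a different one, 30.4% without it. For Pml the same transcript led with 55.1 and 33.5%, for Irf1 with 87.6 and 65.6%, for Irf9 with 68.8 and 60.6%, and for Ly6a with 68.1 and 70.3%. As TPM, a level per length, the vehicle 24 h libraries ranked Ifi27l2a first at 55.2 ± 22.4 (SD, n = 4), then Ifitm3 at 22.9 ± 7.99, Ly6a at 16.8 ± 7.6, Bst2 at 7.65 ± 1.31 and Irf1 at 5.57 ± 1.65. Pml at 3.63 ± 1.98, Irf9 at 2.29 ± 1.14, Mndal at 2.06 ± 2.12 and Rnf213 at 0.587 ± 0.424 followed, neighbours that do not differ beyond their SD except for Ifi27l2a and, below Ly6a, Bst2.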

How the data were processed

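Transcript tables for 24 libraries in 6 groups were used. Kallisto and GRCm38 are named per the submitters' processing notes, and the sources used here give no version or settings. Per the file headers, the deposited values are estimated counts and TPM for each of 142604 transcripts, with 0 other per-sample columns. Estimated counts were summed by gene and rounded. Replicates were numbered in accession order.

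Genes were filtered with filterByExpr, normalized by TMM and fitted with edgeR 4.0.16 (quasi-likelihood test, 1 coefficient per group over all libraries, R 4.3.3), with Benjamini-Hochberg adjustment over all 3799 tested genes and a threshold of 0.05. Intervals of log2 fold changes use edgeR's degrees of freedom. Promoters, marker sums and exact ratios were computed in Python 3.11.15 with pandas 2.3.3 and scipy 1.17.1. Coordinates come from GENCODE M21 on GRCm38, in which 260 of 55401 gene identifiers were not matched, and Mndal was matched without its version.

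Alternatives were RLE normalization, no filter, DESeq2 1.42.0, limma 3.58.1 (limma-trend) on log2(TPM + 1), named protein-coding genes, the compared groups alone and leaving out each library. Leaving out the deepest and the shallowest library, with all or with named protein-coding genes, was chosen after seeing the data. Simulated counts for vehicle at 24 h against unstimulated were run on the 3276 genes that passed the filter. Of these, 0% of genes changed 2-fold, 56.5% of those changed 4-fold and 90% of those changed 8-fold were called, and 0.13% of unchanged genes. The simulation only raised genes, in that comparison alone and with equal levels in all other groups, so its shares do not carry over to the other comparisons. With propyzamide at 24 h against unstimulated, fitted differences of 6.92-fold for Ifi27l2a and 7.39-fold for Rnf213 were not called. A missing call therefore says little about changes near 2-fold and is not evidence against larger ones.

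The members and lists were chosen with earlier results of these data known. The text names all 9 members, list genes called in any of 12 comparisons (1 is not reported here), up to 2 genes per list with the most counts, and the 3 genes most alike in log2 CPM (prior count 2) to Ifi27l2a, Bst2 and Irf1. Other genes are named where they overlap or resemble a member or stand at 0 in a marker list.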

Additional observations from a re-analysis of the deposited data

Results flagged for a closer look

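In 3 of 54 sets of 4 libraries, 1 library stood apart from the other 3 by more than Dixon's 95% critical value for the gap over the range, and chance flags about 1 in 20 such sets. Irf1 was at 45 CPM in vehicle 24 h replicate 1, against 17.2 to 21.7 in the others. Irf9 was at 8.94 CPM in unstimulated propyzamide replicate 4, against 1.67 to 2.79. Mndal was at 0.761 CPM, a single count, in vehicle 3 h replicate 2, against 0 in the others. With the other 3 at 0, any count gives a gap over the range of 1, so this flag is empty. The rate of 1 in 20 is for continuous values and need not hold for low counts.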

How the results depend on the processing

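None of the 8 calls of members changed sign in any setting run, though all settings refit the same libraries. The 4 calls for vehicle at 24 h are among the values by which the genes were chosen. When 1 of their compared libraries was left out, the call held in 8 of 8 fits for Ifi27l2a and 1 of 8 for Ly6a. It held in 0 of 8 for Bst2 and for Ifitm3. The number of the 9 members called, 4 for vehicle at 24 h against unstimulated, was 1 with RLE normalization, 2 with no filter, 0 with limma-trend and 1 to 4 when 1 library was left out. For vehicle at 24 h against 3 h it was 0, and 1 with RLE normalization, no filter, named protein-coding genes or the compared groups alone, 2 with DESeq2 and 2 without the deepest and shallowest libraries (all or named protein-coding genes), and 0 to 1 with 1 library left out. For propyzamide at 3 h it was 0, and 1 with named protein-coding genes, with or without those 2 libraries. For propyzamide at 24 h against unstimulated it was 1, and 3 with RLE, 4 with no filter, 6 with DESeq2, 0 with limma-trend, 2 with named protein-coding genes, 0 with the compared groups alone, 2 without the 2 libraries, 3 with named protein-coding genes and without them, and 0 to 4 with 1 library left out. Against 3 h it was 3, and 5 with RLE, 6 with DESeq2, 2 with no filter and 2 with named protein-coding genes (Ifi27l2a and Pml in each), 3 with limma-trend (Ifi27l2a, Bst2 and Rnf213), and 1 with the compared groups alone or without the 2 libraries, with all or named protein-coding genes; leaving out 1 library gave 2 to 3. With the compared groups alone, the filter left fewer members to test: 6 and 3 of the 9 for vehicle at 24 h against unstimulated and against 3 h, and 1, 5 and 4 for propyzamide at 3 h, at 24 h against unstimulated and against 3 h. Pml was not among them in the latter 2, so its missing call there is not a lost call.

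Uncalled differences changed sign as follows, and the cause was not tested. With limma-trend, log2 values were -0.28 for Ifi27l2a and -0.01 for Bst2 (vehicle 3 h), -0.36 for Mndal (vehicle 24 h), -0.04 for Rnf213 and -0.26 for Irf1 (vehicle 24 h against 3 h), 0.14 for Irf1 (propyzamide 24 h against 3 h) and 0.26 for Ifitm3 (propyzamide against vehicle at 24 h). With named protein-coding genes, Pml was at 0.14 (vehicle 3 h) and Irf1 at -0.19 (vehicle 24 h against 3 h), and at 0.09 and -0.12 without the 2 libraries, where Irf9 was at -0.08 (propyzamide 24 h against 3 h). Irf1 in that last comparison was at 0.03 with RLE, 0.03 with DESeq2 and 0.14 with the compared groups alone. Leaving out 1 library gave -0.45 to 0.89 for Ifi27l2a, -0.06 to 1.56 for Bst2 and -0.33 to 0.38 for Pml (vehicle 3 h), -0.46 to 0.42 for Irf1 (vehicle 24 h against 3 h), -0.21 to 1.03 for Ifitm3 and -0.09 to 0.76 for Mndal (propyzamide 3 h), and -1.21 to 0.52 for Ifi27l2a (propyzamide against vehicle at 3 h). The negative values of Ifi27l2a and Bst2 at vehicle 3 h came without vehicle 3 h replicate 4.

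Over all genes, calls by edgeR and their range over the 8 other settings were 11 (7 to 57) for vehicle at 3 h, 16 (0 to 77) at 24 h and 0 (0 to 79) for 24 h against 3 h, and 27 (0 to 78), 3 (0 to 71) and 579 (63 to 1044) with propyzamide. Propyzamide against vehicle gave 0 at each stage in the main test and, with no filter, 19 unstimulated, 11 at 3 h and 65 at 24 h (1, 0 and 3 with DESeq2), and the interactions 0 and, with no filter, 20 to 27 (0 to 2 with DESeq2). No paired analysis was possible because the labels carry no replicate numbers. At these depths single counts decide low values, and the exact intervals of count ratios cover counting error only.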
